A study of Mus musculus with 6 samples.

Results

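Chromatin accessibility was measured by ATAC-seq, in which a transposase cuts and tags open DNA, in a c-myc-immortalized line of mouse embryonic fibroblasts (line A, also called C2). The members described here are 43 homeobox genes outside the Hox clusters. They were chosen by name from 11 families (Irx, Dlx, Lhx, Isl, Msx, Pitx, Otx, Emx, En, Nkx and the sine oculis relatives, numbered Six2 to Six6), and all 43 were found among 21887 protein-coding genes of the mm10 assembly. The study had 3 groups of 2 samples: Ezh2 -/- cells, Ezh2 -/- cells carrying retroviral pMSCV-Ezh2 as a rescue, and wild-type cells. All derive from a single line that carries c-myc, and Ezh2 encodes the histone methyltransferase of the Polycomb complex PRC2. All values were read from the 21835 accessible intervals that the authors listed for the Ezh2 -/- cells. Rescued and wild-type cells were not analysed here, and nothing below is a comparison of genotypes. Some intervals are pieces of a larger called region, so absence from the list because of the authors' threshold and because of such trimming cannot be told apart. The list gives a single value for each interval and none per replicate, so no replicate error, interval or p-value is given, and the read depth is unknown.

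Each interval carries a total signal, the area under the coverage of the called region it belongs to, and a maximum signal, the height of that coverage, both in the authors' units. Over the 19147 called regions on the chromosomes the median maximum signal was 27 and the median total signal 29070. Of 12 fibroblast marker genes, 10 had an interval within 1 kb of either end, among them Vim, Col1a1, Fn1 and Twist2, while Pdgfra and Thy1 had none. Of 20 genes that mark epithelial, haematopoietic, endothelial or neuronal cells, 3 had one (Krt8, Rbfox3 and Map2). Over all protein-coding genes the share with such an interval was 47.4%, and the marker counts were not tested against it. In a bulk profile, a site open in some of the cells and a site weakly open in all of them cannot be told apart.

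Homeobox genes encode transcription factors that bind DNA through a homeodomain and set the identity of body regions, organs and neurons in the embryo. Outside their own tissue many of them are textbook targets of Polycomb complexes, which bind CpG-rich promoters and hold genes silent. The promoters are shown first because the CpG content of a promoter is set beside its accessibility further on. RefSeq promoter windows of 300 bases (GRCm38.p6, the assembly behind mm10), 250 before and 50 after a transcription start, were matched by symbol for 32 of the 43 genes. Printed below are the 250 bases before the outermost start of 8 genes, read 5′ to 3′ in the direction of the gene, with every CG dinucleotide in capitals. En1 (chr1:120602237-120602486, plus strand) had the highest maximum signal of the covered promoters. Emx2 (chr19:59458440-59458689, plus) and Emx1 (chr6:85187681-85187930, plus), Irx3 (chr8:91801655-91801904, minus) and Irx4 (chr13:73260247-73260496, plus), and Lhx6 (chr2:36105409-36105658, minus) and Lhx8 (chr3:154330561-154330810, minus) are paralogues of which Emx2, Irx3 and Lhx6 lay under an interval and Emx1, Irx4 and Lhx8 did not. Nkx6-1 (chr5:101664712-101664961, minus) had the most CG dinucleotides of the 32 windows and lay under none.
En1: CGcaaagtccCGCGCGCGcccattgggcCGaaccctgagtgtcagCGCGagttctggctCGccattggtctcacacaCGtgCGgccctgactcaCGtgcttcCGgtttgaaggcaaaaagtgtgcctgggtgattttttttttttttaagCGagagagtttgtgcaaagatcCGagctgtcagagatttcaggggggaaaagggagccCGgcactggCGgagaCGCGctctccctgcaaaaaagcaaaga
Emx2: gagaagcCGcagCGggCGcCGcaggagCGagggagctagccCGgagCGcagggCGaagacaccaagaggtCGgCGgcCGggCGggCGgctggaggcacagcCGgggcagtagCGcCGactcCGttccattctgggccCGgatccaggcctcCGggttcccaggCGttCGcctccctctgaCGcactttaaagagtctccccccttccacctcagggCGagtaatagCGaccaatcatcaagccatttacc
Emx1: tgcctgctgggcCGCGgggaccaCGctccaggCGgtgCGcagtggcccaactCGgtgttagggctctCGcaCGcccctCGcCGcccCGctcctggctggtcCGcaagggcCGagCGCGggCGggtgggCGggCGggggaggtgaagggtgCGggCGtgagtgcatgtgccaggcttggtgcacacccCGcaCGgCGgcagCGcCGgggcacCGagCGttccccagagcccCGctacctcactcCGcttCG
Irx3: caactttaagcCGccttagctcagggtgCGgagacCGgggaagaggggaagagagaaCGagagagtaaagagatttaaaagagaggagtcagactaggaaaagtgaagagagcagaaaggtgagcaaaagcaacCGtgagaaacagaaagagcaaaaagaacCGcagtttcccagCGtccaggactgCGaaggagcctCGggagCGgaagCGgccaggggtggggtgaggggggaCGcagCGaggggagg
Irx4: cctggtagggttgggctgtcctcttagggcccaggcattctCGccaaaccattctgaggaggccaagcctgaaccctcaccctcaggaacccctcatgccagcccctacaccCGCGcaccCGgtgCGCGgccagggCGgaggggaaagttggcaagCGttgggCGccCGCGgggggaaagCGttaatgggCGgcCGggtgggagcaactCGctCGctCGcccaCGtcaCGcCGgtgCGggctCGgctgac
Lhx6: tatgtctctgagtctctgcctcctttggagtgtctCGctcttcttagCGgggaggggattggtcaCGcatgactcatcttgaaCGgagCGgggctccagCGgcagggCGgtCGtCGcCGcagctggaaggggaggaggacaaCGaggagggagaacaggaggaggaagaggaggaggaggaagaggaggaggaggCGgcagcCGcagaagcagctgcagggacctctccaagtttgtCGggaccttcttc
Lhx8: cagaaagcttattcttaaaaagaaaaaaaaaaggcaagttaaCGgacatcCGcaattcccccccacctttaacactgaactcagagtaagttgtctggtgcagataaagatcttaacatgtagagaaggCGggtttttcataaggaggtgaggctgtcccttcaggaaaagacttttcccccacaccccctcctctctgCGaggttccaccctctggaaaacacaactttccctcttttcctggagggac
Nkx6-1: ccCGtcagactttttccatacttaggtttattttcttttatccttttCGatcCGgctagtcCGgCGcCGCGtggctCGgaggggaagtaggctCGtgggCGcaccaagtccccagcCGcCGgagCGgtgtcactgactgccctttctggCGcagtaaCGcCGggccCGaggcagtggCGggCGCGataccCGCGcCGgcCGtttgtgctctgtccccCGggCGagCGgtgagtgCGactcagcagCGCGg

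Of the 43 homeobox genes, 21 (48.8%) had an interval no farther than 1 kb from either end of the gene, called a gene-end interval below. The same held for 47.4% of all protein-coding genes, so as a set the homeobox genes lay at the background. An interval overlapped the gene body at 22 (51.2%, against 52.8% of all protein-coding genes), and 35 had at least 1 interval within 100 kb (81.4%, against 77.0%). The difference from the background was small enough to turn with the settings. The share was 39.5% against 45.9% with 500 bp either side of the gene ends, and 53.5% against 50.2% with 2500 bp. The share was 25.6% against 19.6% when only called regions above the upper quartile of total signal were kept, and 27.9% against 36.9% when only those with a maximum signal above the median were kept. Where a gene end did carry an interval, it was at the median wider and lower than over all genes. The highest maximum signal at the gene had a median of 31 over the 21 homeobox genes (quartiles 22 and 41) and of 39 over all 10378 protein-coding genes with one (quartiles 29 and 50). The widest interval had a median of 3556 bp at the homeobox genes and of 2808 bp at all such genes, and the highest total signal a median of 45710, against 39334.5.

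**Figure D1:**
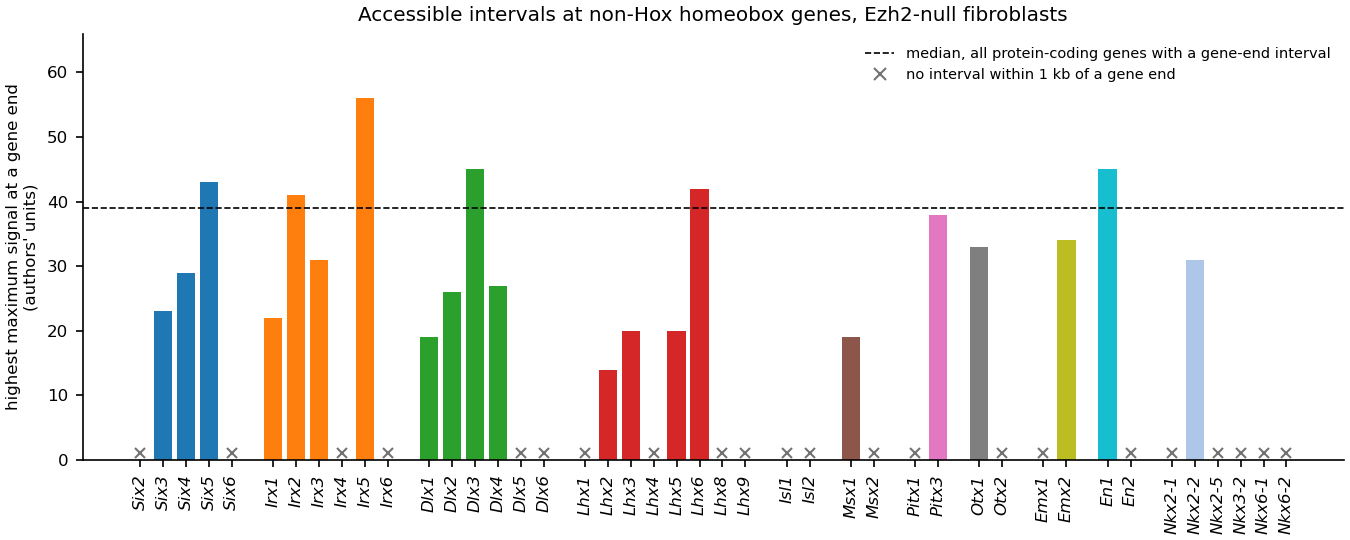
Highest maximum signal (y axis, authors' units) of an interval within 1 kb of either end of each of the 43 homeobox genes (x axis, coloured and grouped by family), with a cross where no interval was listed. Bars run from 14 at Lhx2 to 56 at Irx5, and 6 of them stand above the dashed line at 39, the median over all protein-coding genes with such an interval.

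The Iroquois genes, which pattern the neural plate, heart and limb, held the highest maximum signal of the 43. Irx5 carried a called region in 2 pieces, 92355529 to 92358452 and 92358828 to 92361218 on chromosome 8, with a maximum of 56 and a total of 78289. Of all called regions on the chromosomes, 92.9% had a lower maximum. The lower piece also lay at an end of the long non-coding RNA gene Crnde. Irx2 had an interval of 6254 bp inside the gene (maximum 41, total 79623), and Irx3 an interval of 3556 bp that covered 91.4% of the gene (maximum 31, total 45267). Irx1 had 2 intervals, 1 of 5565 bp over 85.5% of the gene (maximum 22, total 45710) and 1 of 1925 bp beside it (maximum 21, total 17116). Irx4, a gene of the heart ventricle, and Irx6 had none. Thus 4 of 6 Iroquois genes had a gene-end interval, and the highest total signal at each of these 4 lay above the median of 29070.

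The sine oculis relatives, named after a Drosophila eye gene, had an interval at 3 of 5. Six5 had an interval of 4554 bp (maximum 43, total 60306) which also lay at ends of Dmpk, the kinase gene mutated in myotonic dystrophy, and of Bhmg1. Six4, which acts in muscle precursors, had an interval of 5035 bp over its upper end (maximum 29, total 48177). Six3, a regulator of the forebrain and eye, had intervals of 3028 bp (maximum 23) and 1132 bp (maximum 14) at the outer ends of its RefSeq span, both over 4 kb from its listed start. Six2, which keeps nephron progenitors, and Six6, another eye gene, had none.

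The Dlx genes, relatives of Distal-less that act in the forebrain, jaws and skin, had a gene-end interval at both genes of 2 tandem pairs and at neither gene of the third. Dlx3 lay whole inside an interval of 11270 bp, 95116263 to 95127532 on chromosome 11 (maximum 45, total 119031). This was the highest total signal at any of the 43 genes, and it counts a second piece of the called region outside Dlx3. Its neighbour Dlx4 had intervals of 4309 bp and 4757 bp (maxima 19 and 27, totals 52130 and 35839). Dlx1 had an interval of 2465 bp (maximum 19, total 17905) and Dlx2 of 1764 bp (maximum 26, total 36372). Dlx5 and Dlx6, which pattern the jaw and the otic capsule, had none, and the nearest interval lay 75.0 kb from Dlx5 and 60.5 kb from Dlx6. The maximum of the region at Dlx2, and that of the lower region at Dlx4, fell outside the interval at the gene. The surroundings differed in the same order: of the other genes within 5 Mb, 67.1% carried a gene-end interval around Dlx3, 33.3% around Dlx1 and 20.6% around Dlx5. The division by pair depended on the settings. Of Dlx1 and Dlx2, 1 counted above the median total signal or among intervals that contain their maximum, and 0 counted above the upper quartile of total signal or above the median maximum signal. By the last measure 1 of Dlx3 and Dlx4 counted.

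Of 8 LIM-homeobox genes, which specify neurons, pituitary and limb, 4 had a gene-end interval. That count was 1 with windows of 500 bp, 2 above the median total signal, and 1 above its upper quartile or above the median maximum signal. Lhx6, a gene of cortical interneurons, carried a called region of 2 pieces (7249 and 5678 bp, maximum 42, total 99821) in its distal part, where Morn5 also has an end, and a separate interval of 3962 bp over its start (maximum 18, total 60839). Lhx5 had an interval of 1679 bp (maximum 20, total 15709), close to the lowest total signal in the list, 15316. Lhx2, a gene of the forebrain, eye and hair follicle, had an interval of 2792 bp that ended short of its start (position -866 relative to it; maximum 14, total 20200) and another of 1959 bp in its body (maximum 13, total 18850). Lhx3, a pituitary and motor neuron gene, had an interval of 1883 bp beyond its lower end, at least 8623 bp from its outermost start (maximum 20, total 42648). Lhx1, Lhx4, Lhx8 and Lhx9 had none at a gene end. Lhx4 did have an interval of 1786 bp over its listed start, which lies inside the RefSeq span of the gene (maximum 16, total 34099). The LIM-homeobox genes Isl1 and Isl2, which mark motor neurons, had no gene-end interval either. Isl2 held an interval of 922 bp in its body, beginning 871 bp after the start (maximum 11, total 16876), and only 0.439% of called regions had a lower maximum. Isl1 was the gene farthest from any interval, at 714 kb.

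In the other 5 families with a pair of paralogues, 1 paralogue carried a gene-end interval and the other did not. En1, which patterns the midbrain, hindbrain and ventral limb, had an interval of 6302 bp over 90.8% of the gene, 120601181 to 120607482 on chromosome 1 (maximum 45, total 114162, in a called region of 2 pieces). En2 had none, and its nearest interval lay 2.0 kb away (maximum 13). Emx2, a gene of the cortex and urogenital tract, had an interval of 7203 bp (maximum 34, total 79730). Emx1 had none, and its nearest interval lay 32.4 kb away. Pitx3, needed for midbrain dopamine neurons and the lens, had intervals of 4028 bp, also at an end of Elovl3 (maximum 38, total 49372), and of 5998 bp over its start (maximum 33, total 51055). Pitx1, the hindlimb identity gene, had none, and its nearest interval lay 109 kb away. Otx1 had an interval of 1320 bp (maximum 33, total 23862), while Otx2, the head organiser gene, had none within 209 kb. Msx1 had an interval of 2308 bp (maximum 19, total 16163). Msx2, which like Msx1 acts in teeth, skull and limb, had none, and its nearest interval lay 180 kb away. A division of 1 of 2 is near the share of all protein-coding genes with a gene-end interval, 47.4%, and was not tested. The division rested in part on weak intervals. Above the median total signal, 3 of these 6 pairs, counting Isl, divided this way, and Msx1 and Otx1 no longer counted.

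Of the 6 Nkx genes only Nkx2-2, which specifies ventral neural tube and pancreatic cells, had a gene-end interval. It measured 2648 bp (maximum 31, total 34995) and lay at the end opposite to the start, at least 7250 bp from it. Nkx3-2, a cartilage gene, and Nkx6-2, a glial gene, had their nearest intervals 1.77 and 3.76 kb away. Nkx2-5, the heart gene, had none within 15.8 kb. Nkx2-1, which specifies thyroid, lung and ventral forebrain, and Nkx6-1, a gene of motor neurons and beta cells, stood 368 and 390 kb from the nearest interval.

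Position relative to the transcription start could be read for the 32 genes with a promoter entry. An interval covered a listed start at 12 of them: Six4, Six5, Irx2, Irx3, Dlx1, Dlx2, Lhx4, Lhx6, Msx1, Pitx3, Emx2 and En1. At 11 of these the maximum lay within 1000 bp of the outermost start, with the closest at Msx1, 52 bp before it. Dlx2 was the exception, with its maximum 3561 bp from the start. Of the 15 genes with both an entry and a gene-end interval, 11 had a start covered, and Six3, Lhx2, Lhx3 and Nkx2-2 did not. Within 1000 bp of a listed start, 14 of the 32 had an interval (43.8%), against 46.9% of the 17492 protein-coding genes with an entry. By that measure Lhx4 and Isl2 were gained and Six3, Lhx3 and Nkx2-2 were lost.

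**Figure D2:**
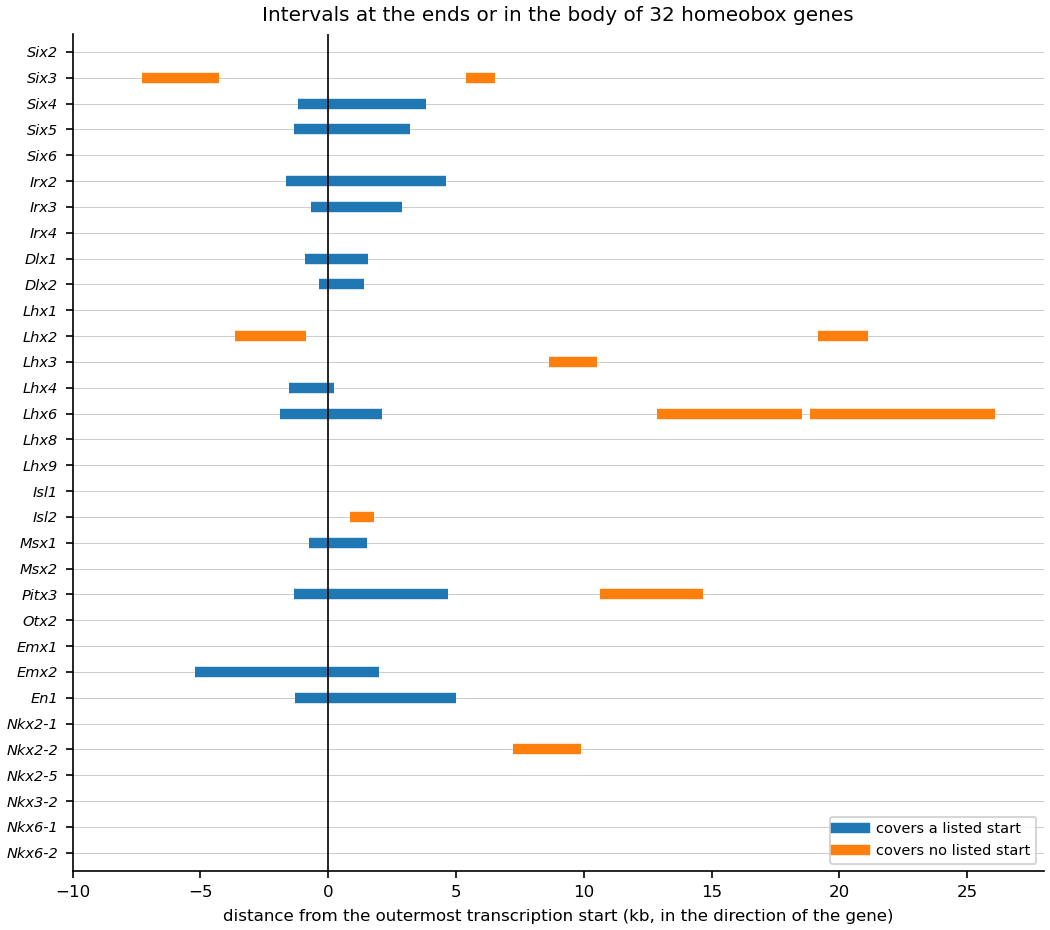
Intervals at the ends or in the body of the 32 homeobox genes with a listed start, as distance from the outermost start in kb in the direction of the gene (x axis), with 1 row for each gene. Blue intervals cover a listed start, as at the 12 genes named, and orange ones do not, as at Six3, Lhx3 and Nkx2-2; rows without a bar had no interval there.

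The promoters of these genes were CpG-rich, and the share of them under an interval was lower than that of other promoters with 20 or more CG dinucleotides. The 300-base windows held a median of 22.5 CG dinucleotides over the 32 homeobox genes and of 13 over all protein-coding genes with an entry. The G+C share had a median of 65.85%, against 56.3%. An interval overlapped the window at 12 of 32 (37.5%, against 44.4% of all). Among windows with 20 or more CG dinucleotides, 7 of 19 homeobox promoters were covered (36.8%), against 4876 of 6290 promoters of other genes (77.5%). With 30 or more, 0 of 8 homeobox promoters were covered (Six2, Irx4, Lhx1, Lhx2, Isl1, Emx1, Nkx6-1 and Nkx6-2), against 81.1% of 2607 others. With 20 to 29, 7 of 11 were covered (Dlx1, Dlx2, Emx2, En1, Irx2, Msx1 and Pitx3), against 75.0% of others. With 10 to 19, 5 of 9 were covered, against 56.5%, and with fewer, 0 of 4 (Lhx8, Lhx9, Otx2 and Nkx2-5), against 10.6%. Of the 8 richest, 7 stood over 1000 bp from any interval, from 3.41 kb at Lhx1 to 714 kb at Isl1, and Lhx2 stood at 616 bp. None of the 20 uncovered windows lay within the outer span of a called region, so none of them fell in a gap between pieces. The class bounds were chosen after the counts had been seen, and the difference was not tested. Hox promoters with an entry were covered at 6 of 22, with a median of 13.5 CG dinucleotides. By class, 2 of 7 Hox promoters with 20 to 29 CG dinucleotides were covered and 0 of 2 with 30 or more, so low counts among CpG-rich promoters were also seen in the Hox genes.

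**Figure D3:**
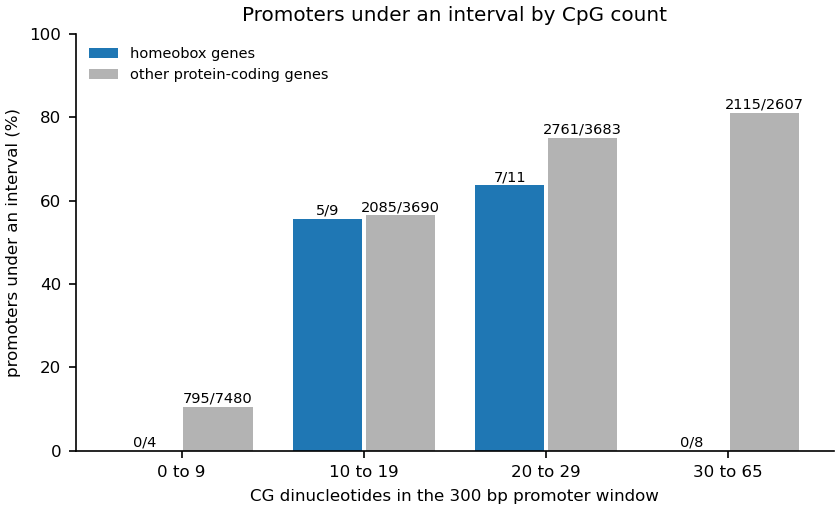
Share of promoters that overlap an interval (y axis, percent) by the number of CG dinucleotides in the 300-base window (x axis), for homeobox genes (blue, left) and other protein-coding genes (grey, right), with covered and total promoters printed above each bar. The grey bars climb to 81.1% in the richest class, where the blue bar stands at 0 of 8.

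The 6 motifs below were searched on both strands of the same windows. GGGCGG, the GC box, occurred in 22 of 32 homeobox promoters (68.8%) and 46.3% of all promoters with an entry. CCAAT occurred in 17 (53.1%, against 39.2%), TAATTA, a homeodomain core, in 3 (9.38%, against 4.69%), CACGTG, the Myc E-box, in 3 (9.38%, against 7.91%), and TATAAA in 2 (6.25%, against 13.3%). TGANTCA, the AP-1 motif, occurred in 4 (12.5%, against 7.03%), those of Six5, Lhx4, Lhx6 and En1. All 4 of these promoters lay under an interval. Over all protein-coding genes, 4.08% of covered and 9.39% of uncovered promoters held TGANTCA. In the En1 sequence printed above, a TGANTCA match and a CACGTG match overlap. GGGCGG and CACGTG each contain CG, so their frequency moves with CpG content. Among other genes with 14 to 29 CG dinucleotides, the quartiles of the homeobox genes, 71.2% held GGGCGG and 11.2% CACGTG. The homeobox shares of these 2 motifs, 68.8% and 9.38%, are over all 32 windows and not only those with 14 to 29. They are therefore not matched to these genes in CpG content, and the difference was not tested.

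Tandem clusters differed in how much of them was accessible. The Dlx3 and Dlx4 cluster on chromosome 11 (95120117 to 95146294) had 6 intervals over 63.6% of its span with 5 kb at either side. Dlx1 and Dlx2 on chromosome 2 (71528113 to 71546754) had 2 intervals over 14.8%, and Dlx5 and Dlx6 on chromosome 6 (6863334 to 6882068) had 0. These 3 clusters are alike in layout, with spans of 26.2, 18.6 and 18.7 kb. On chromosome 17, Six3 and Six2 span 74.6 kb and had 2 intervals over 4.91%, both at Six3. Six6 and Six4 on chromosome 12 span 174 kb and had 2 intervals over 4.63%, of which 1 lay at Six4 and 1 between the genes, at an end of another protein-coding gene. The Iroquois clusters were sparse. Irx1, Irx2 and Irx4 on chromosome 13 (71958232 to 73269622) had 3 intervals over 1.04% of 1310 kb, all of them at Irx1 or Irx2. Irx3, Irx5 and Irx6 on chromosome 8 (91798511 to 92680956) had 6 intervals over 1.63% of 882 kb, 3 of them at Irx3 or Irx5. No other protein-coding gene lies within either Iroquois cluster. In both, the third gene of the cluster in genome order, Irx4 or Irx6, had no gene-end interval. Genes of a cluster share surroundings and, at Dlx3 and Dlx4, windows within 100 kb, so they are not independent.

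**Figure D4:**
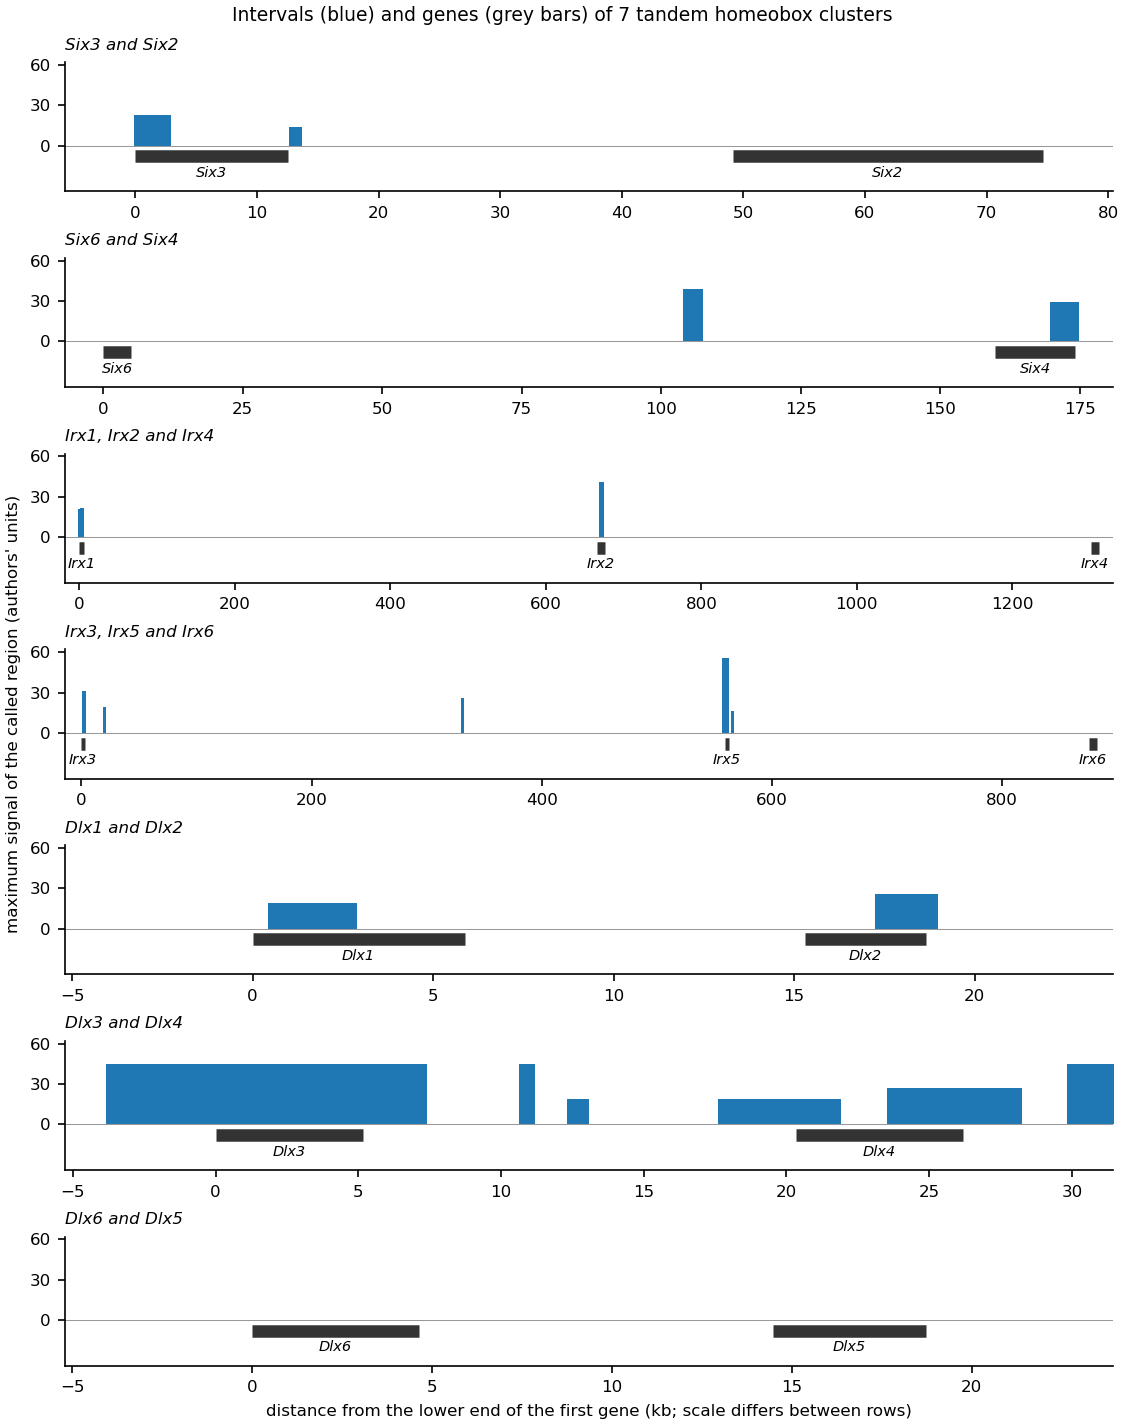
Intervals (blue, height as maximum signal of the called region in the authors' units, y axis) and the homeobox genes (grey bars) of 7 tandem clusters, against distance in kb from the lower end of the first gene (x axis, scale differs between rows; other genes are not drawn). Blue covers 63.6% of the Dlx3 and Dlx4 row and is absent from the Dlx6 and Dlx5 row. All 3 intervals of the Irx1, Irx2 and Irx4 row stand at the genes, and 3 of 6 in the Irx3, Irx5 and Irx6 row.

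Gene-end intervals at homeobox genes were shared with non-coding RNA genes at 9 of 21 and with other coding genes at 4 of 21. At the 9 genes (42.9%) an interval also lay within 1 kb of an end of a non-coding RNA gene, against 20.1% of all protein-coding genes with a gene-end interval. The partners included the antisense or opposite-strand genes Dlx1as, Dlx4os, Msx1os and Emx2os. At the 4 genes (19.0%, Six4, Six5, Lhx6 and Pitx3) an interval also lay at an end of another protein-coding gene, against 40.5%. These differences were not tested, and a shared interval cannot be assigned to either gene.

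The homeobox genes had a median of 2 intervals within 100 kb (quartiles 1 and 5.5), against 3 over all protein-coding genes (quartiles 1 and 7), and a median of 2 coding neighbours there, against 4. Dlx4 (23), Dlx3 (20), Lhx3 (12) and, with 9 each, Lhx6, Pitx3 and En2 had the most. Irx6, Lhx8, Isl1, Msx2, Pitx1, Otx2, Nkx2-1 and Nkx6-1 had 0, which makes 18.6% without any, against 23.0% of all genes. Of 165 intervals counted around the 43 genes, 140 were distinct. Of the 165, 27 stood at the member's own ends, 4 in its body only, 53 at an end of another coding gene, 14 in the body of another and 67 between coding genes. Of these 67, 12 were counted around Dlx3 and 16 around Dlx4, some of them around both. En2 and Nkx2-5 had 9 and 7 intervals within 100 kb and none at their own ends. Among genes with at most 3 coding neighbours within 100 kb, 15 of 36 homeobox genes had a gene-end interval (41.7%), against 41.1% of other genes. With more neighbours, 6 of 7 had one (85.7%), against 51.7%.

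The share of other genes with a gene-end interval within 5 Mb ranged from 20.6% around Dlx5 and Dlx6 to 81.9% around Msx1, with a mean of 54.5% over the 43 genes. Where that share was 50% or more, 14 of 26 homeobox genes had a gene-end interval themselves, and where it was lower, 7 of 17. Six5 stood in a region with few intervals (25.8% of neighbours) and had one, while Nkx2-5 (73.6%) and En2 (71.7%) stood in dense regions and had none. Without the genes of chromosome 5 and of chromosome 11 beyond 90 Mb, where intervals were dense, 17 of 36 homeobox genes had one (47.2%), against 45.5% of all genes.

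**Figure D5:**
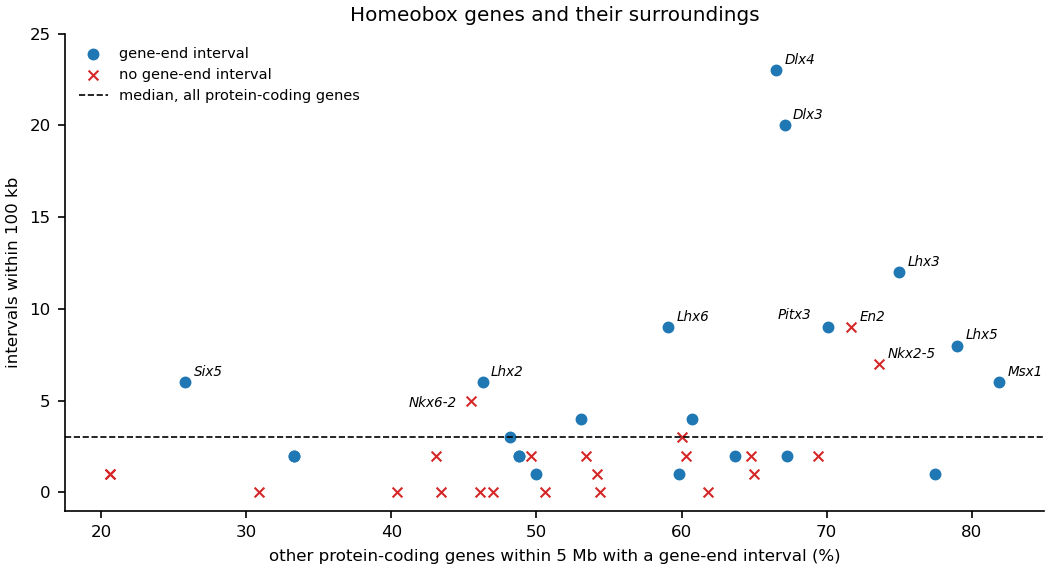
Number of intervals within 100 kb of each of the 43 homeobox genes (y axis) against the share of other protein-coding genes within 5 Mb that had a gene-end interval (x axis, percent); blue circles have a gene-end interval themselves, red crosses do not, and names are given from 5 intervals up. Dlx3 and Dlx4 stand apart at 20 and 23 intervals, and crosses run from 20.6% at Dlx5 and Dlx6 to 73.6% at Nkx2-5.

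Of 32 genes for partners of homeodomain proteins, 25 had a gene-end interval (78.1%, against 47.4% of all protein-coding genes). All 11 listed genes of the Pbx, Meis, Pknox and Tgif groups had one, including Pbx3 (maximum 65) and Pknox1 (49), whose products bind DNA together with other homeodomain proteins. All 6 listed genes of the Groucho family had one, led by Tle4 (maximum 93) and Tle1 (81). Tle2 and Tle5 stood at 70 in the same called region. Of 9 partners of LIM-homeodomain proteins 5 had one, among them Ssbp3 (46), Ldb1 (41) and Ssbp4 (36), and Ldb2 and Lmo1 were the first in the alphabet without. Of 6 partners of the sine oculis relatives 3 had one, Eya3 (39), Eya1 (33) and Eya4 (25), and Dach1 and Dach2 were the first without. Hox genes, the clustered relatives, had one at 21 of 39 (53.8%), with a median highest maximum signal of 31, the same as at the 21 homeobox genes described here. The Hox share was below that of all genes above the median total signal (30.8%, against 32.7%) and above the median maximum signal (28.2%, against 36.9%). The partner genes had 59.4% and 68.8% at these settings. These differences were not tested, and the partner list was chosen with earlier results of these data known.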

How the data were processed

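ATAC-seq with transposition on whole cells was done on 6 samples, grouped by genotype and treatment labels. The submitters' processing notes name Bowtie2 2.2.9, deepTools, SEACR and mm10 but give neither order nor settings. The authors deposited 1 list of SEACR intervals for the Ezh2 -/- cells, with a total signal (an area, treated as a score) and a maximum signal in their own units. The sources used here do not give whether or how the 2 replicates were combined, the threshold, any control, duplicate removal or any transposase shift. The depth is unknown. Any of these could change which weak intervals are listed. Of the intervals, 20.5% do not contain the maximum of their called region, and 2148 of 19215 called regions appear in pieces, as if trimmed against another set of intervals that no source used here describes, so signal was read per called region and width per interval.

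Genes came from RefSeq on GRCm38.p6. A gene-end interval overlaps, by at least 1 bp, the 1000 bp either side of a gene's start or end, so an end far from the promoter also counts. Transcription starts, strands and promoters came from a RefSeq table with 17492 of the protein-coding genes. All shares were computed over the whole gene table, with no test, since the list has no replicates. The members and lists were chosen with earlier results of these data known. The rule for named genes accounts for all 43 members, gives those with intervals their values, and takes from each partner list up to 3 genes by maximum signal and the first 2 in the alphabet without an interval. A gene that the rule takes is not reported here. Windows of 500 and 2500 bp, stricter intervals and other distances were tried. Python 3.11.15, numpy 2.4.6, pandas 2.3.3 and matplotlib 3.10.9 were used. The lookup of intervals was tested on simulated data, where 0 of 400 genes differed from a direct search.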

Additional observations from a re-analysis of the deposited data

How the results depend on the processing

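Of 44 alternative values for the main counts, 38 stayed within 1.5 times the reported count. With only regions in the top quartile by total signal, members with a gene-end interval numbered 11 of 43 (25.6%), the partner genes 13 of 32 (40.6%) and the Hox genes 9 of 39 (23.1%), against 19.6% of all genes. Above the median total signal the Hox genes numbered 12 of 39 (30.8%, against 32.7% of all genes). Among called regions with a maximum signal above the median, an alternative chosen after seeing the data, the members numbered 12 of 43 (27.9%) and the Hox genes 11 of 39 (28.2%), against 36.9% of all genes. Stricter sets hold fewer intervals by construction. With windows of 500 bp Irx2, Lhx2, Lhx3 and Lhx5 were lost (39.5% against 45.9% of all genes), and with 2500 bp En2 and Nkx3-2 were gained (53.5% against 50.2%). Of 133 alternative values for single families, single clusters and the number of divided paralogue pairs, 27 moved by more than 1.5 times. The numbers of families and of tandem clusters with at least 1 called member stayed within 1.5 times of 10 of 11 and 6 of 7 under every alternative run on them. Both started near their ceiling. The lowest values were 7 of 11 families, above the upper quartile of total signal, and 4 of 7 clusters, there and above the median maximum signal. Counting called regions once gave 136 in place of 165 intervals within 100 kb.

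No paired analysis was possible because there is 1 list for the Ezh2 -/- cells, with no values per replicate, and no other group was analysed here. For the same reason leaving out a replicate was not run. The depth behind the list is unknown, so a gene without an interval is not shown to be closed. An interval absent because of the authors' threshold and one trimmed from the list cannot be told apart.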
